A study of Mus musculus with 124 samples.

Results

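The cerebral cortex of mice kept awake through their rest phase was compared with the cortex of undisturbed mice taken in the middle of their active night, gene by gene. The comparison used 8 of the 62 cortex RNA sequencing libraries, chosen by their labels alone: 3 libraries from mice kept awake for 6 h and 5 libraries from undisturbed mice. The series holds 124 libraries in all, from cortex and liver. The 3 deprived mice had been kept awake by gentle handling from light onset until zeitgeber time (ZT, hours after light onset) 6, which is 30 h after the start of the baseline day (T30). The 5 undisturbed mice were killed at ZT18 of the baseline day, 6 h into darkness. All were mice of 11 to 12 weeks with free access to food under 12 h of light and 12 h of darkness, killed by decapitation under isoflurane, and each library is 1 mouse. Undisturbed mice at ZT6 (n = 5), which have the clock time and light of the deprived mice, served as the rest-phase level. The 3 deprived libraries carried the codes T30S1, T30S3 and T30S4, and the ZT18 libraries the codes T18N2, T18N3, T18N4, T18N7 and T18N8.

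Mice are nocturnal, so mid-night is a time of spontaneous wake, while wake at ZT6 has to be enforced. Wake raises immediate early genes, which encode transcription factors switched on quickly by neuronal activity, and after them genes of synaptic plasticity, protein folding and heat shock. The molecular clock runs alongside: CLOCK and ARNTL drive the period and cryptochrome genes, whose proteins shut that drive off, and another loop of nuclear receptors sets the level of Arntl. A comparison of enforced day wake with night wake therefore asks which wake genes reach the level of an ordinary night and which pass it. Time of day, light and the way of being awake differ together between the groups and cannot be told apart. The labels do not say whether, or for how long, each undisturbed mouse had been awake before it was killed. Below, T30 and ZT18 are called wake groups, ZT18 for its clock time alone.

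Of 17108 named genes, 1165 (6.81%) differed between T30 and ZT18 at an adjusted p under 0.05. T30 was higher for 575 (3.36%) and lower for 590 (3.45%), and 49 of the 1165 differed by over 2-fold. For the same deprived libraries against ZT6, 5550 genes (32.4%) differed, 2678 higher (15.7%) and 2872 lower (16.8%). Undisturbed ZT18 differed from ZT6 for 5260 genes (30.7%), 2615 higher (15.3%) and 2645 lower (15.5%). These comparisons share libraries in pairs, so their counts are set side by side only. The count of 1165 was 702 without T30S1, 684 without T30S3 and 594 without T30S4.

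Each gene was placed against the night level. A gene was above or below the night when it passed the threshold, and matched when it did not pass and the 95% interval of T30 minus ZT18 lay within 1.5-fold in either direction (0.585 on the log2 scale). The remainder were unresolved, with intervals too wide to place them. Of all named genes 12938 (75.6%) were matched and 3005 (17.6%) unresolved. A matched gene is bounded by that interval and is not shown to be equal. The window is wider than the rise of most wake genes from ZT6 to ZT18, so for genes with a small night rise a match does not separate the night level from the midday level.

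Wake genes were taken from mice in neither group: 1469 genes (8.59%) were higher after 3 h of enforced wake (T27, n = 3) than in undisturbed mice at ZT3 (n = 3), and 1341 (7.84%) were lower. Enforced wake chose these genes, so genes raised in night wake alone are left out. A tilt above the night is therefore partly built into the set. Of the 1469 wake genes, 1090 (74.2%) matched the night level at T30, 286 (19.5%) were above it, 9 (0.613%) were below it and 84 (5.72%) were unresolved. The matched share is near the 75.6% over all genes, and the night rise over ZT6 of the matched wake genes was small (median 0.18, upper quartile 0.30). Of the 256 wake genes that rose over 1.5-fold at 3 h, 99 were above the night, 81 matched and 1 was below. The median wake gene was 0.11 higher at T30 than at ZT18 on the log2 scale, where the median over all genes was -0.0025. Against ZT6, the median of the wake genes was 0.28 at T30 and 0.18 at ZT18. The count above the night was 189 without T30S3, 146 without T30S4 and 179 when only the libraries of label batch 1 (3 against 3) were used. Of the 1341 genes lowered at 3 h, 946 (70.5%) matched the night, 193 (14.4%) were below it and 5 above it.

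**Figure D1:**
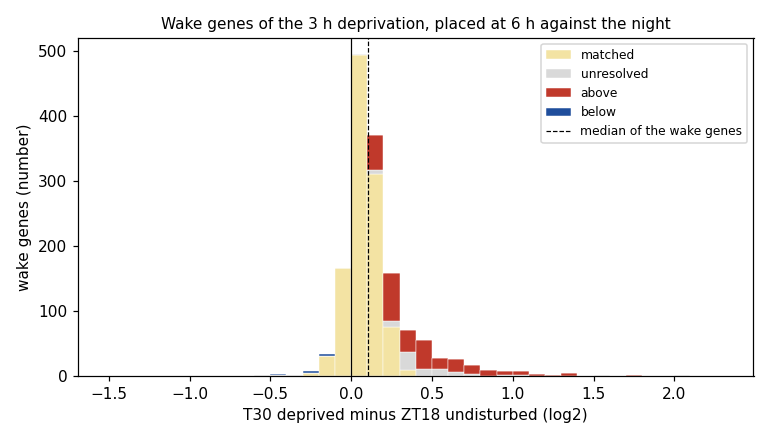
Histogram of the difference T30 deprived (n = 3) minus ZT18 undisturbed (n = 5), in log2, for the 1469 wake genes, coloured by their place against the night level. Most of the 1090 matched genes stand just right of 0, the dashed line is the median of 0.11, and the 286 genes above the night form the tail to the right.

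No library was left out. Antilogs of the deposited values summed to 979200 to 1020000 CPM (counts scaled to library size) per library, and the depth of each library is unknown. T30 libraries lay 0.247 to 0.27 log2 units apart (root mean square over genes, 3 pairs), ZT18 libraries 0.267 to 0.299 (10 pairs) and libraries of different groups 0.297 to 0.358 (15 pairs). Summed markers of astrocytes, oligodendrocytes, pericytes and blood overlapped between the groups, with 5980 to 6380 CPM at T30 and 6210 to 6930 at ZT18 for 11 excitatory neuron markers. Choroid plexus markers were low, at 4.63 to 8.05 CPM in sum at T30 and 5.57 to 20.6 at ZT18. In tissue of many cell types, fewer cells of a type and less RNA per cell cannot be told apart.

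Immediate early genes had a high share above the night, where 3.36% of all genes stood. Of 24 measured, 13 were above it (Fosb, Fosl2, Junb, Egr3, Nr4a1, Npas4, Ier5, Atf3, Btg2, Maff, Klf4, Klf10 and Crem), none was below, 3 matched and 8 were unresolved. The median difference over the list was 0.89 on the log2 scale. The call of Egr3 ended without any 1 of the T30 libraries, T18N2, T18N4 or T18N8. Against ZT6, 23 of the 24 were higher at T30 and 13 at ZT18 (15.7% and 15.3% over all genes), with medians of 1.33 and 0.46. Averaged over the 24 genes and set against the ZT6 mean, the T30 libraries T30S1, T30S3 and T30S4 stood at 1.49, 1.23 and 1.37, and the ZT18 libraries in the order of their codes at 1.03, 0.36, 0.70, 0.21 and 0.47. All 3 deprived libraries lay above all 5 night libraries, and T18N2 came nearest to them. The ZT6 libraries stood at -0.38 to 0.44, a range that held the night libraries T18N3 and T18N7. The count of 13 was 5 without T30S1, 8 without T30S3, 6 without T30S4 and 8 without T18N3, and 6 among the libraries of batch 1.

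Fosb, a subunit of the AP-1 transcription factor (chr7:19302696-19310051, minus strand, GRCm38), stood at 5.05, 4.78 and 5.04 log2 CPM in the 3 T30 libraries. In the 5 ZT18 libraries it stood at 4.13, 3.97, 3.64, 3.67 and 3.64. The groups did not overlap, and T30 was 2.22-fold higher (1.15 ± 0.22 SE on the log2 scale, adjusted p = 0.000287). Its relative Fosl2 was 1.79-fold higher (0.84 ± 0.17, adjusted p = 0.000738), and Crem, a repressor and activator acting at cyclic AMP response elements, 1.34-fold (0.42 ± 0.08, adjusted p = 0.000275). These 3 calls held under every alternative tried.

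Several members were spread widely among the night mice. Junb, another AP-1 subunit, stood at 6.35, 6.13 and 6.21 at T30 and at 5.72, 4.26, 5.36, 3.85 and 4.87 at ZT18, where T18N2 and T18N4 stood nearest to the deprived mice. T30 was 2.67-fold higher (1.42 ± 0.42, adjusted p = 0.0292). Nr4a1, an orphan nuclear receptor of the early response, was 2.34-fold higher (1.23 ± 0.36, adjusted p = 0.027). Npas4, a factor that answers calcium entry in neurons, was 2.01-fold higher (1.01 ± 0.32, adjusted p = 0.0403). For both, the groups did not overlap. The calls of Junb, Nr4a1 and Npas4 each ended without T18N3, without T18N7 or without any 1 of the T30 libraries. Over the 24 immediate early genes the median SD was 0.354 among the 5 ZT18 libraries and 0.167 among the 3 T30 libraries, against 0.0941 and 0.0757 over all genes.

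Arc and Fos had large differences that did not pass. Arc, which encodes a capsid-like regulator of synaptic strength, stood at 9.19, 8.86 and 9.20 at T30 and at 8.30, 6.20, 8.33, 5.20 and 7.07 at ZT18. All T30 values were above all ZT18 values, and the difference was 2.06 ± 0.68 (adjusted p = 0.0541). Fos stood at 6.46, 5.99 and 6.15 against 5.45, 4.34, 5.12, 3.83 and 4.51, a difference of 1.55 ± 0.55 (adjusted p = 0.0796). In both genes T18N2 and T18N4 were the highest night libraries and T18N7 the lowest. Arc passed without T18N2 or without T18N4. Fos passed when only the 8 libraries were fitted, which sets T30 against the 3 ZT18 libraries of its own batch (1.23, adjusted p = 0.00643). Egr1, which like Arc and Fos was higher at T30 than at ZT6 (1.43, adjusted p = 6.8e-05), differed from the night by 0.40 ± 0.28 (adjusted p = 0.466), with 9.21, 9.0 and 9.24 at T30 against 8.48 to 9.13 at ZT18. Its 95% interval ran from -0.16 to 0.96, so a match within 1.5-fold was not shown.

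**Figure D2:**
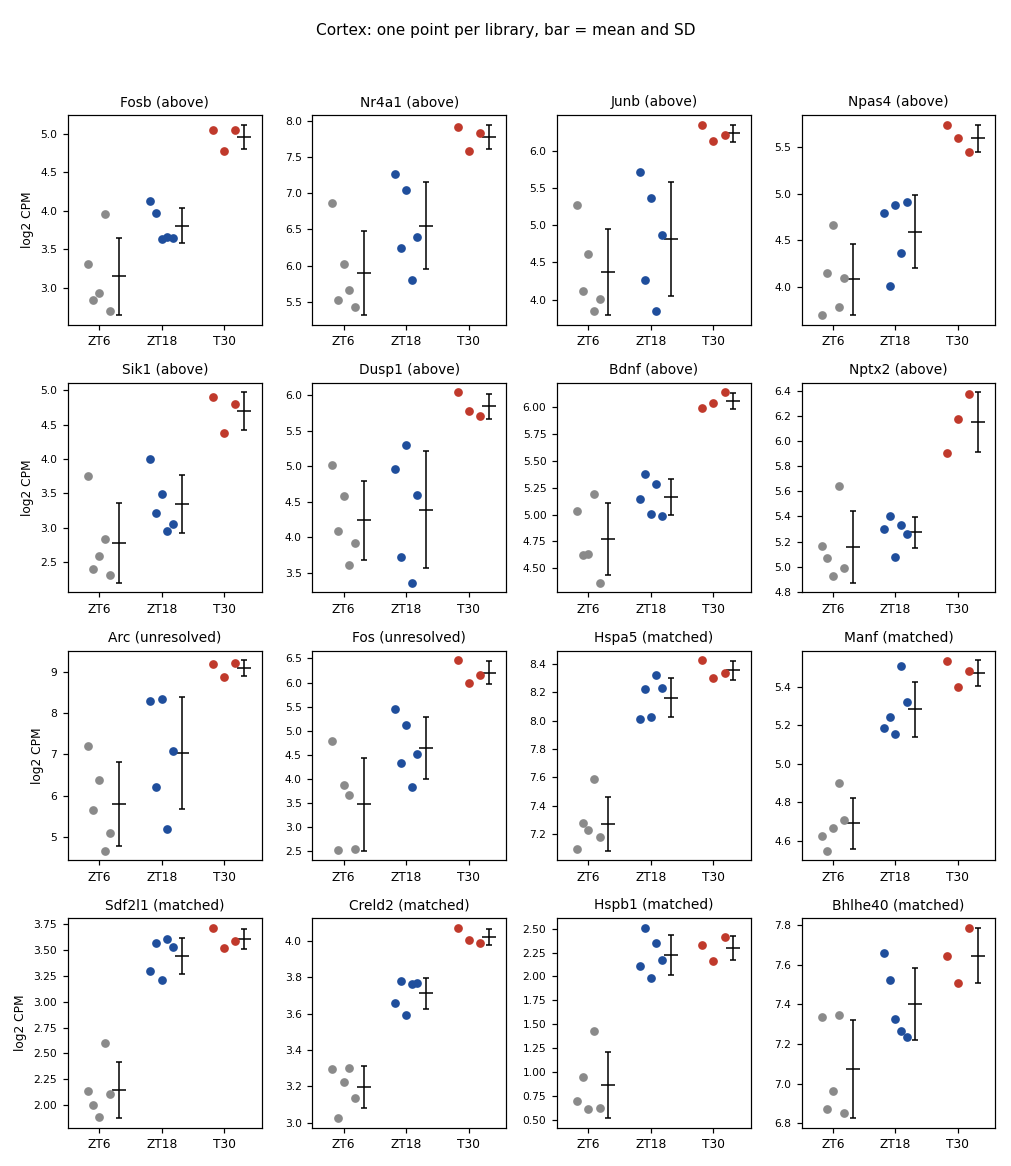
Log2 CPM of 16 wake-related genes in each library of undisturbed ZT6 (grey, n = 5), undisturbed ZT18 (blue, n = 5) and deprived T30 (red, n = 3), with the mean and SD in black and the place against the night in brackets. Red points lie above all blue points for Fosb, Bdnf and Sik1, while for Hspa5, Sdf2l1 and Hspb1 red and blue points overlap above the grey.

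Effectors of activity are genes that early transcription factors and calcium signals switch on next. Of 30 measured, 21 were above the night (3.36% over all genes), none below, 6 matched and 3 (Homer1, Plk3 and Per1) were unresolved. Their median difference was 0.68. Against ZT6, 26 were higher at T30 but 8 at ZT18 (15.7% and 15.3% over all genes), with medians of 0.97 and 0.16. Averaged over the list and set against ZT6, the T30 libraries stood at 0.86, 0.85 and 1.01, and the ZT18 libraries at 0.39, 0.24, 0.28, 0.11 and 0.19. All T30 libraries lay above all night libraries, and T18N2 was again the nearest. The ZT6 libraries stood at -0.19 to 0.19, which overlapped with the lowest night libraries. The count of 21 was 14 without T30S4.

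Bdnf, a neurotrophin released with activity (chr2:109674700-109727007, plus strand), stood at 5.99, 6.04 and 6.13 at T30 and at 5.15, 5.37, 5.01, 5.29 and 4.99 at ZT18. The night mice overlapped with the ZT6 mice (4.37 to 5.19), although the means differed by 0.39 (adjusted p = 0.0019), and the deprived mice were 1.86-fold above the night (0.89 ± 0.12, adjusted p = 6.91e-07). Nptx2, a pentraxin that gathers glutamate receptors at synapses, was 1.84-fold higher (0.88 ± 0.13, adjusted p = 4.13e-06). Scg2, a granin of dense-core vesicles, stood at 8.23, 8.38 and 8.42 against 7.48, 7.61, 7.56, 7.67 and 7.65, a 1.69-fold difference (0.75 ± 0.07, adjusted p = 4.28e-10). Night and midday levels of Nptx2 and Scg2 did not pass as different, with ZT18 minus ZT6 at 0.11 (adjusted p = 0.44) and -0.05 (adjusted p = 0.60).

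Several effectors restrain signalling, and of these Rgs2, Rgs4 and Spred1 matched the night. Dusp1 and Dusp5, phosphatases that switch off MAP kinases, were 2.74-fold (1.45 ± 0.44, adjusted p = 0.0341) and 2.47-fold (1.31 ± 0.26, adjusted p = 0.000574) above the night. Dusp1 stood at 6.04, 5.78 and 5.70 against 4.97, 3.72, 5.30, 3.35 and 4.60, with T18N2 and T18N4 high and T18N7 lowest among the night mice, and its call ended without T18N3, T18N7 or any 1 T30 library. Sik1, a kinase that restrains transcription by CREB and its coactivators, was 2.54-fold higher (1.35 ± 0.32, adjusted p = 0.00517). Rasd1, a small G protein induced by glucocorticoids and activity and not on the effector list, was 2.41-fold higher (1.27 ± 0.20, adjusted p = 1.85e-05). Cdkn1a, the cyclin-dependent kinase inhibitor p21, stood at 4.97, 4.98 and 5.21 against 3.78, 3.97, 3.52, 3.83 and 3.64, a 2.48-fold difference (1.31 ± 0.16, adjusted p = 1.53e-07), while ZT18 and ZT6 were 0.01 apart.

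Homer1, whose short form loosens the postsynaptic scaffold and which is widely used as a marker of sleep loss, stood at 8.98, 8.95 and 9.23 at T30 and at 8.61, 8.73, 8.52, 8.80 and 8.70 at ZT18, against 7.54 to 8.60 at ZT6. Both wake groups were above ZT6, by 1.22 (adjusted p = 5.7e-08) and 0.84 (adjusted p = 3.7e-06). T30 and ZT18 did not overlap, but the difference of 0.38 ± 0.16 did not pass (adjusted p = 0.152), and it passed in the fit of the 8 libraries alone (adjusted p = 0.00309). The table does not separate Homer1 transcripts, so its short form was not measured on its own.

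Promoters of these genes were searched for the full cyclic AMP response element (CRE, TGACGTCA, palindromic), to which CREB and CREM bind. RefSeq windows of 300 bases, 250 before and 50 after a start site, were at hand for 12224 of the 17099 gene symbols tested (GRCm38.p6), and a gene counted when any of its windows held the motif. Among the early genes and effectors, 2 of 18 (11.1%) and 3 of 21 (14.3%) with a window held it, against 409 of 12224 (3.35%) in all. Of wake genes above the night 15 of 219 (6.85%) held it, and of matched wake genes 43 of 848 (5.07%). The AP-1 site (TGANTCA) was in 0 of 18 early genes and 9.52% of effectors (6.23% in all), the E-box (CACGTG) in 16.7% and 33.3% (11.1% in all), and the CArG box in 11.1% and 4.76% (1.6% in all). The 5 genes of the lists that held the CRE were all above the night. So were 13 of the 24 early genes and 21 of the 30 effectors, so this does not link element and place. These 5 are shown with the CRE in capitals and 18 bases on each side.
Btg2, chr1:134079296-134079339, minus strand: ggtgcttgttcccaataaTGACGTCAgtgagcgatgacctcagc
Maff, chr15:79347473-79347516, plus strand: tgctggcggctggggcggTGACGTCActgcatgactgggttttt
Dusp1, chr17:26508590-26508633, minus strand: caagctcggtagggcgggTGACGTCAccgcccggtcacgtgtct
Plk2, chr13:110394964-110395007, plus strand: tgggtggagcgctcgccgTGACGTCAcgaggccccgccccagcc
Scg2, chr1:79440069-79440112, minus strand: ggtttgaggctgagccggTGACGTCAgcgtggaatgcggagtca

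Chaperones of the endoplasmic reticulum (ER), genes of the unfolded protein response, were near the night level, which 75.6% of all genes matched. Of 20 measured, 19 matched the night, and only Dnajb11 was above it (1.16-fold, 0.21 ± 0.07, adjusted p = 0.0376), a call that ended without any 1 of the T30 libraries, T18N2 or T18N4. Against ZT6, 17 of the 20 were higher at T30 and 17 at ZT18 (15.7% and 15.3% over all genes), with medians of 0.48 and 0.34. Averaged over the list and set against ZT6, the T30 libraries stood at 0.57, 0.48 and 0.52 and the ZT18 libraries at 0.33, 0.44, 0.32, 0.49 and 0.44. T30S3 lay within the night range and the other two just above it. In the fit of the 8 libraries alone, 7 of the 20 were above the night and 13 matched, with a median of 0.17 in place of 0.12. Hspa5 (0.27, adjusted p = 0.0144), Manf (0.28, adjusted p = 0.0115) and Creld2 (0.34, adjusted p = 0.00805) passed in that fit.

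Hspa5 (BiP), the main ER chaperone and a known gene of sleep loss (chr2:34771970-34777547, plus strand), stood at 8.42, 8.30 and 8.33 at T30, at 8.01, 8.22, 8.02, 8.32 and 8.23 at ZT18 and at 7.10 to 7.59 at ZT6. Both wake groups were clear of midday, by 1.08 and 0.89, and they overlapped with each other (0.19 ± 0.12, 95% interval -0.06 to 0.44, adjusted p = 0.423). Sdf2l1, a partner of BiP, stood at 3.72, 3.52 and 3.59 against 3.30, 3.57, 3.21, 3.61 and 3.53, with ZT6 at 1.88 to 2.6. Its rise over midday was 1.46 in the deprived mice and 1.30 in the night mice. Manf, a secreted ER stress factor, differed from the night by 0.19 ± 0.08 (adjusted p = 0.186). Creld2, another secreted ER stress protein, lay above all night libraries (4.07, 4.00 and 3.99 against 3.59 to 3.78) without passing (0.31 ± 0.11, adjusted p = 0.0635).

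The ER stress response element (ERSE), to which ATF6 binds together with NF-Y, is CCAAT, 9 bases and CCACG. It was found on either strand of the windows of 8 of 18 ER chaperones (44.4%), of 8 of 848 matched wake genes (0.943%), of 0 of 219 wake genes above the night and of 20 of 12224 genes in all (0.164%). All 8 chaperones with the element matched the night, but so did 19 of the 20 on the list, so this does not link element and match. Matched wake genes can include these chaperones, and the overlap was not counted. The element is so rare that 0 of 219 does not set the genes above the night apart from all genes. A match is a description of the letters and not of binding. The windows of these 8 are shown with the element in capitals, which stands as its reverse complement in Calr, Creld2 and the second Hsp90b1 window.
Hspa5, chr2:34772007-34772061, plus strand: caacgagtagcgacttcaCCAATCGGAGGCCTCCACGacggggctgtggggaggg
Hsp90b1, chr10:86705620-86705674, minus strand: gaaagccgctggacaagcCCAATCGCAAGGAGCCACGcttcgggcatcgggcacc
Hsp90b1, chr10:86705515-86705569, minus strand: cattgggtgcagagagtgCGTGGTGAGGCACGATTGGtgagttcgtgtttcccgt
Calr, chr8:84847057-84847111, minus strand: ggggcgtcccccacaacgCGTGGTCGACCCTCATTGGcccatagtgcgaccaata
Canx, chr11:50325782-50325836, minus strand: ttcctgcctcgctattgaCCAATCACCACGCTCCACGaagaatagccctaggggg
Pdia6, chr12:17266473-17266527, plus strand: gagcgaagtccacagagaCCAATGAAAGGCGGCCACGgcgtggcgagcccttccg
Creld2, chr15:88819502-88819556, plus strand: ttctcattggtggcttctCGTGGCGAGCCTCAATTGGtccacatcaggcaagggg
Dnajc3, chr14:118937809-118937863, plus strand: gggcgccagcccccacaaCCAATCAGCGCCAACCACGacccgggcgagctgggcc
Syvn1, chr19:6046514-6046568, plus strand: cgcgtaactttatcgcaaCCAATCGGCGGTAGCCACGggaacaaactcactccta

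Of 24 cytosolic heat shock genes, 19 matched the night, a share near the 75.6% over all genes, 3 were above (Hspa8, Hspa4 and Hsph1), 1 was below (Cryab) and 1 was unresolved (Hspa1b). The calls of Hspa4 and Hsph1 ended without T30S4, which left 1 above. Against ZT6, 17 were higher at T30 and 17 at ZT18 (15.7% and 15.3% over all genes), with medians of 0.28 and 0.26. Hspb1, a small heat shock protein, stood at 2.33, 2.16 and 2.41 at T30 and at 2.11, 2.51, 1.98, 2.35 and 2.18 at ZT18, against 0.61 to 1.43 at ZT6, so the wake groups overlapped (0.08 ± 0.19, adjusted p = 0.883). Hspa8, the constitutive HSC70, was 1.17-fold above the night (0.23 ± 0.05, adjusted p = 0.00238) and was above all 5 undisturbed times. Cryab, a small heat shock protein of oligodendrocytes and astrocytes, was 1.28-fold below it (-0.35 ± 0.09, adjusted p = 0.0121), a call that ended without T30S4 (adjusted p = 0.145).

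Genes of cholesterol synthesis were low in both wake groups. Of 24 measured, 21 matched the night, 2 were unresolved and 1 was above it, while 17 were below ZT6 at T30 and 19 at ZT18. Over all genes 75.6% matched the night, and 16.8% and 15.5% were below ZT6. Their median difference from the night was -0.006, with -0.30 and -0.25 against ZT6. Insig1, which holds back the activation of the sterol response, stood at 5.51, 5.45 and 5.34 at T30 and at 5.66, 5.23, 5.57, 5.36 and 5.53 at ZT18, all below the 6.06 to 6.42 of ZT6.

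Among all matched wake genes, those with the largest rise at 3 h were Dok3, Sdf2l1, Dnd1, Tnfrsf23, Bhlhe40, Hspb1, Sik2, Crybb3, Crip3 and Ccdc134. Dok3, an adaptor of immune cell signalling, stood at 4.23, 4.15 and 4.20 at T30 and at 4.03, 4.14, 3.79, 3.85 and 3.71 at ZT18, against 2.39 to 2.97 at ZT6. Both wake groups were over 1.2 log2 units above midday (1.54 and 1.26) and 0.29 ± 0.13 apart (adjusted p = 0.18). Crip3 overlapped between the wake groups, with 1.56 to 1.78 at T30 and 1.59 to 1.79 at ZT18 against 0.49 to 0.83 at ZT6. Bhlhe40, a repressor within the clock that answers many stimuli, differed by 0.24 ± 0.14 (adjusted p = 0.37). Shank2, a postsynaptic scaffold protein, stood 0.47 and 0.49 above ZT6 and -0.02 ± 0.07 from the night (adjusted p = 0.933).

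Among wake genes above the night, those with the largest rise at 3 h were Fosb, Sik1, Tnfrsf25, Dusp4, Rasd1, Htr5b, Cdkn1a, Wisp1, Klf4 and Plekhg4. The calls of Tnfrsf25, Dusp4, Htr5b and Klf4 each ended without T30S4, among other libraries. Plekhg4, a guanine nucleotide exchange factor, stood in 3 separate ranges, with 0.62 to 1.58 at ZT6, 2.43, 2.55, 2.19, 2.35 and 2.35 at ZT18 and 3.14, 3.27 and 3.48 at T30. T30 was 1.90-fold above the night (0.92 ± 0.19, adjusted p = 0.00119). Wisp1 (Ccn4), a secreted matricellular protein, was 2.5-fold above the night (1.32 ± 0.23, adjusted p = 6.86e-05), while ZT18 and ZT6 were 0.08 apart. Its relative Cyr61 (Ccn1) was 2.93-fold above (1.55 ± 0.40, adjusted p = 0.00946).

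Clock genes went both ways. Of 10 repressors, Per2, Per3, Cry1 and Bhlhe41 were below the night, Nr1d1 was above it, 4 matched and Per1 was unresolved. Of 7 activators, Arntl and Clock were above, Rorb below and 4 matched. The call of Clock ended without T30S3 or T30S4 and that of Rorb without T30S1 or T30S3. Of 7 PAR bZIP outputs and their kin, Dbp, Tef, Hlf and Usp2 were below and Nfil3, which opposes them at the same sites, was above. No gene on these clock lists was above all or below all of the 5 undisturbed times.

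Per2, a core repressor, stood at 5.87, 5.84 and 5.99 at T30 and at 6.65, 6.69, 6.17, 6.30 and 6.17 at ZT18, against 4.61 to 5.25 at ZT6. Enforced wake placed it between midday and night: 1.02 above ZT6 (adjusted p = 1.1e-06) and 0.49 ± 0.16 below ZT18 (adjusted p = 0.0426). The second of these calls ended without any 1 of the T30 libraries, T18N2 or T18N3. Cry1, its partner, stood at 3.95, 3.94 and 4.07 against 4.62, 4.66, 4.43, 4.64 and 4.48 at night, 1.5-fold below (-0.58 ± 0.09, adjusted p = 6.81e-06), and 0.20 from ZT6 (adjusted p = 0.069). Per1 differed from the night by 0.57 ± 0.24 (adjusted p = 0.153), with 7.32, 7.04 and 7.33 against 6.22 to 7.23.

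Dbp, a direct output of the clock, stood at 5.16, 5.35 and 5.09 at T30, below all night libraries (5.82 to 5.99) and all midday libraries (6.02 to 6.36). It was 1.64-fold below the night (-0.72 ± 0.12, adjusted p = 5.93e-05) and 0.93 lower than ZT6 on the log2 scale. The T30 libraries overlapped with undisturbed mice at ZT3, in which Dbp stood at 5.30, 5.18 and 5.26. Tef stood at 8.22, 8.24 and 8.19 against 8.82, 8.84, 8.81, 8.74 and 8.77 (-0.58 ± 0.04, adjusted p = 7.25e-14), and Hlf was 1.45-fold below (-0.53 ± 0.06, adjusted p = 3.19e-08). Nfil3 stood at 3.90, 3.74 and 3.92 against 3.13, 2.84, 2.99, 2.83 and 3.05, 1.84-fold above (0.88 ± 0.12, adjusted p = 2.7e-06), and its ZT18 and ZT6 levels were 0.09 apart. Arntl was 1.30-fold above the night (0.37 ± 0.06, adjusted p = 2.78e-05). Its T30 libraries (5.78 to 5.91) overlapped with undisturbed mice at ZT3 (5.85 to 5.92). Nr1d1 (REV-ERB alpha), which represses Arntl, lay between the low night and high midday levels, with 6.99, 7.02 and 7.05 at T30, 6.43 to 6.80 at ZT18 and 7.29 to 7.48 at ZT6. Its call against the night (0.40 ± 0.11, adjusted p = 0.022) ended without any 1 of the T30 libraries or T18N8.

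**Figure D3:**
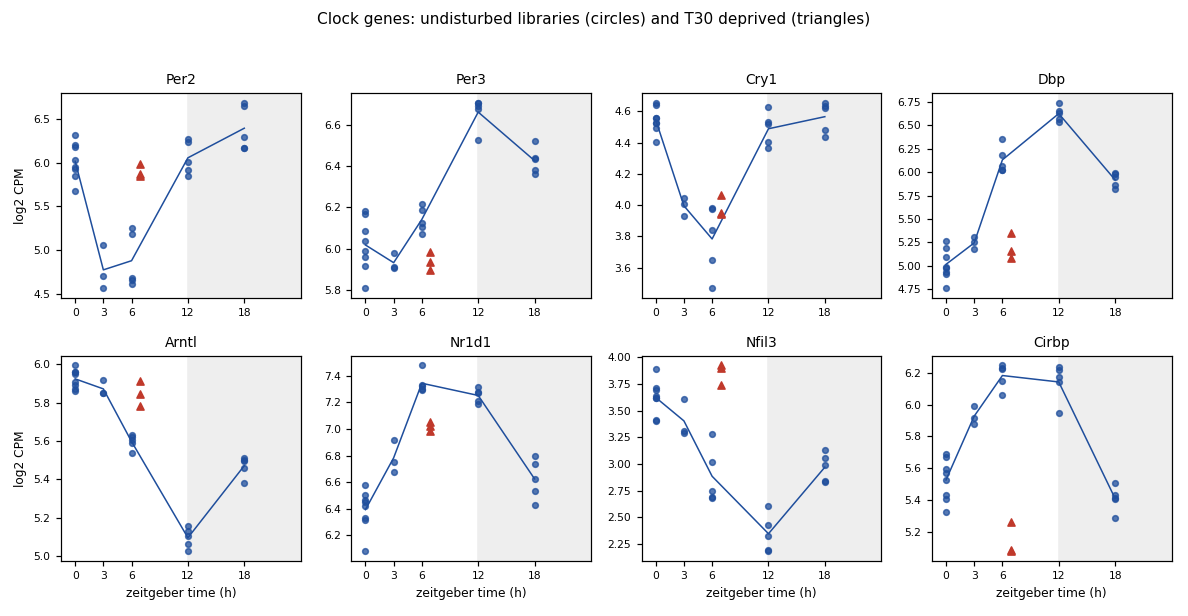
Log2 CPM of 7 clock genes and Cirbp against zeitgeber time in undisturbed libraries (blue circles, line through the means) and in the 3 T30 deprived libraries (red triangles, drawn just right of ZT6), with darkness shaded. Triangles lie below the ZT18 circles for Per2, Per3, Cry1, Dbp and Cirbp and above them for Arntl, Nr1d1 and Nfil3.

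Of the 9 wake genes below the night, Per2, Cry1, Slc15a2, Ubald2 and Rhobtb2 had the largest rise at 3 h. Rhobtb2, an adaptor of a ubiquitin ligase, stood at 7.07, 7.05 and 7.06 at T30, above ZT6 (6.72 to 6.92) and below all night libraries (7.25 to 7.36; -0.22 ± 0.05, adjusted p = 0.0015). Slc15a2, a peptide transporter, was 1.37-fold below the night (-0.45 ± 0.13, adjusted p = 0.0273), and T30 minus ZT6 was -0.06 (adjusted p = 0.77). Its call ended without T18N2, T18N3, T30S3 or T30S4. The count of 9 was 3 or 4 without T30S3 or T30S4, T18N2 or T18N3, T27S5, or either of 2 ZT3 libraries.

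On a list of 5 genes, the cold-inducible RNA-binding genes Cirbp and Rbm3 were below the night. Its other 3 members, the splicing factor gene Srsf5 and the kinase genes Clk1 and Clk4, matched. Cirbp, an RNA-binding protein gene induced by cooling, stood at 5.09, 5.27 and 5.08 at T30, 5.41, 5.51, 5.29, 5.41 and 5.44 at ZT18 and 6.06 to 6.25 at ZT6. Most of its distance from midday was shared by both wake groups (-1.04 and -0.77). The step below the night was 1.20-fold (-0.27 ± 0.08, adjusted p = 0.0375), and it ended without T30S1, T30S4 or any ZT18 library but T18N4. Rbm3 was 1.24-fold below the night (-0.31 ± 0.09, adjusted p = 0.0214), a call that ended without T18N4, T30S3 or T30S4, and ZT18 was 0.07 from ZT6.

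Of 15 neuropeptide and related genes measured, 7 were above the night (Vip, Cck, Crh, Tac1, Cort, Crhbp and Adcyap1), none below, 7 matched and 1 was unresolved. The median difference was 0.23, and 3.36% of all genes were above the night. Against ZT6, 6 were higher at T30 and 0 at ZT18 (15.7% and 15.3% over all genes), and the medians were 0.19 and -0.03. The count of 7 was 3 without T30S1 or T30S3 and 4 without T18N4. Crh, corticotropin-releasing hormone, which cortical interneurons make, stood at 3.45, 3.44 and 3.72 at T30 and at 2.36, 2.33, 2.34, 2.7 and 2.63 at ZT18. It was 2.09-fold above the night (1.06 ± 0.16, adjusted p = 4.13e-06) and above all 5 undisturbed times. Adcyap1 (PACAP) was 1.51-fold above (0.60 ± 0.11, adjusted p = 0.000363). The call of Tac1 ended without T18N4, T30S1 or T30S3. Vip stood at 5.92, 5.88 and 5.96 against 5.39, 5.51, 5.50, 5.49 and 5.51, 1.36-fold above (0.44 ± 0.07, adjusted p = 4.2e-05).

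Markers of inhibitory neurons, which make several of these peptides, were summed beside this list. Their sum over 11 genes was 984 to 1030 CPM at T30 and 901 to 973 at ZT18, without overlap, and without the neuropeptides among them the remaining 8 genes summed to 750 to 801 and 701 to 769, with overlap. Of the 11, Vip was above the night and 10 matched. Gad1 and Slc32a1, which define GABA neurons, differed by 0.04 ± 0.04 and -0.01 ± 0.06 (adjusted p = 0.629 and 0.969), and Gad2 by 0.12 ± 0.05 (adjusted p = 0.0994). The part of cell composition in the peptide differences was not tested.

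Of 32 receptors of the arousal transmitters, 25 matched (75.6% over all genes), 4 were unresolved, Htr2a was above and Htr1a and Hrh3 were below the night. Hrh3, an inhibitory histamine receptor, stood at 5.71, 5.73 and 5.55 at T30, below ZT18 (6.44, 6.56, 6.29, 6.31 and 6.21) and ZT6 (5.99 to 6.27), 1.62-fold under the night (-0.70 ± 0.09, adjusted p = 1.53e-07). Undisturbed mice at ZT3 stood nearer to T30, at 5.84, 5.83 and 5.77, and none of the 32 receptors was below all 5 undisturbed times. Htr2a, an excitatory serotonin receptor, was 1.29-fold above (0.37 ± 0.09, adjusted p = 0.0104), a call that ended without T30S1. Htr1a, an inhibitory one, was 1.31-fold below (-0.39 ± 0.12, adjusted p = 0.0305), which ended without any 1 of the T30 libraries, T18N3 or T18N4. None of 11 genes of adenosine handling was called, 9 of them matched, and Adk, the kinase that clears adenosine, differed by -0.11 ± 0.05 (adjusted p = 0.228).

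Genes that answer glucocorticoids were higher in part. Of 20 measured, 7 were above the night, 1 (Nr3c1, the glucocorticoid receptor) was below, 8 matched and 4 were unresolved. The median difference was 0.28, and 3.36% of all genes were above the night. Against ZT6, 15 were higher at T30 and 4 at ZT18 (15.7% and 15.3% over all genes). Fkbp5, a co-chaperone of that receptor, stood at 5.04, 4.89 and 5.07 against 4.58, 4.39, 4.69, 4.48 and 4.59, 1.37-fold above (0.45 ± 0.11, adjusted p = 0.00616), a call that ended without T30S4 (adjusted p = 0.0522). Tsc22d3 (GILZ) was 1.22-fold above (0.28 ± 0.08, adjusted p = 0.0164), which ended without T30S1 or T30S4. Of the 7, Cdkn1a and Dusp1 also stand on the effector list, and Klf9 on the thyroid hormone list. The count of 7 was 4 without T30S1 and 2 without T30S4.

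Of 10 thyroid hormone genes, 3 were above the night (3.36% over all genes), 1 was below, 4 matched and 2 were unresolved. The count above was 1 without T30S4, and the call of Hr ended without T18N2, T30S3 or T30S4. Dio2, the deiodinase by which astrocytes make active hormone, stood at 7.50, 7.28 and 7.58 at T30, 6.75, 6.81, 6.78, 6.92 and 6.91 at ZT18 and 6.32 to 6.48 at ZT6. The 3 groups did not overlap, and T30 was 1.54-fold above the night (0.62 ± 0.09, adjusted p = 2.7e-06). The hormone-responsive Klf9, which also counts above the night on the glucocorticoid list, was 1.19-fold above (0.25 ± 0.06, adjusted p = 0.00494), a call that ended without T30S4. In glucose handling 17 of 21 genes matched, a share near that over all genes (75.6%). Gpd1, a link of glycolysis to lipid synthesis, was 1.31-fold above (0.39 ± 0.06, adjusted p = 1.34e-05), and Pdk2, a brake on pyruvate oxidation, 1.27-fold below (-0.34 ± 0.05, adjusted p = 3.21e-06).

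All 40 cytosolic ribosomal protein genes and all 27 respiratory chain genes matched, with differences from -0.062 to 0.078 and from -0.11 to 0.10. All 15 GABA receptor genes matched, as did 23 of 24 genes of the glutamatergic postsynapse and 27 of 31 potassium channels (75.6% over all genes). Of the integrated stress response 13 of 16 matched, again near that share, with Atf4 and Slc3a2 1.14-fold and 1.10-fold above, and both calls ended without T30S1 or T30S4, that of Slc3a2 also without T18N4, T18N7 or T18N8.

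**Figure D4:**
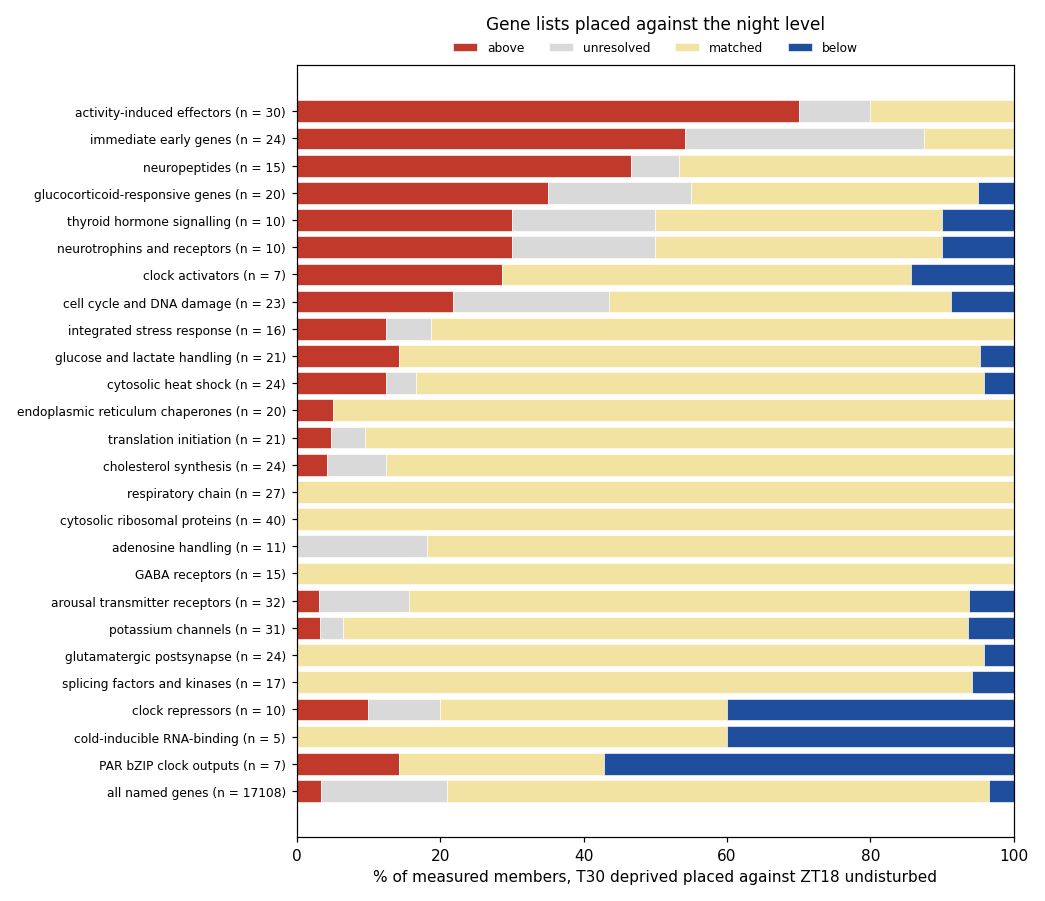
Share of the measured members of each gene list (number in brackets) that T30 deprived placed above, below or level with ZT18 undisturbed, or left unresolved, with all 17108 named genes at the foot. Activity-induced effectors (21 of 30) and immediate early genes (13 of 24) have the longest red bars, and ER chaperones (19 of 20 matched) are almost all yellow.

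The night was 1 of 5 undisturbed times sampled. T30 was above each of ZT0, ZT3, ZT6, ZT12 and ZT18 for 188 genes (1.1%) and below each for 131 (0.766%). Of the 1469 wake genes, 129 were above all 5 and 0 below. The counts of 188 and 131 were 51 and 48 without T30S4 and 91 and 68 in batch 1 alone, and 109 and 80 without T30S3. Without T30S1 the second was 77. The immediate early list held 5 of the 188 and the effector list 8.

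Furthest above the undisturbed day stood Rasd1, Fndc9, Fosb, Plekhg4, Htr5b, Slc23a3, F2rl2 and Car12. Car12, a membrane carbonic anhydrase, stood at 3.61, 3.87 and 4.11 at T30 and at 2.56, 2.56, 2.33, 2.5 and 2.49 at ZT18, 2.59-fold above the night (1.37 ± 0.15, adjusted p = 4.86e-09). Fndc9, a fibronectin-domain gene, had the largest difference among called genes above the night, with 1.45, 1.42 and 1.78 against -0.85, 0.11, -0.45, -0.20 and 0.12 (3.50-fold, 1.81 ± 0.28, adjusted p = 1.77e-05). F2rl2, a subunit of thrombin receptors, was 2.03-fold above (1.02 ± 0.17, adjusted p = 4.32e-05). Fndc9 was low in this table, and its difference was 1.09 with 1 CPM added before taking logs. The call of Slc23a3 ended without T30S4 and that of Htr5b without T30S3 or T30S4.

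Furthest below the undisturbed day stood Gkn3, Mx1, Adh1, Ntf3, Klhl41, Cldn22, Samd3 and Chn1os1, all below 2 log2 CPM in every library of the 2 groups. This order is of fitted group differences, and single libraries could overlap. Mx1 stood at -3.07, -1.32 and -3.28 at T30, with T30S3 inside the ZT6 range (-1.66 to -0.77). Klhl41 stood at -3.33, -2.53 and -2.23 at T30, and T30S4 lay above T18N8 (-2.31). Gkn3, a gastrokine found in brain arterial endothelium, stood at -0.17, -0.24 and -1.21 at T30 and at 1.58, 1.48, 1.37, 1.19 and 1.70 at ZT18, 4.01-fold below (-2.01 ± 0.22, adjusted p = 6.1e-09). Adh1, an alcohol dehydrogenase that also acts on retinol, was 3.75-fold below (-1.91 ± 0.37, adjusted p = 0.000499), and did not pass in the fit of the 8 libraries alone (adjusted p = 0.052). Ntf3, a neurotrophin, stood at -2.86, -2.12 and -2.00 against -1.26, -0.82, -1.54, -0.95 and -1.06 (-1.20 ± 0.32, adjusted p = 0.0148), in the opposite direction to Bdnf, and its call ended without T30S1. With 1 CPM added before taking logs, the differences shrank to -1.14 for Gkn3, -0.41 for Mx1, -0.30 for Adh1 and -0.28 for Ntf3 (adjusted p = 0.105), and the calls of Ntf3, Klhl41 and Chn1os1 ended. Klhl41 also lost its call without T18N2 or T30S1, and Chn1os1 without T18N3, T18N7, T30S1 or T30S3. Summed endothelial markers were 407 to 422 CPM at T30 and 418 to 453 at ZT18, with 10 of 11 matched and Abcb1a below, and their part in the difference of Gkn3 was not tested.

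**Figure D5:**
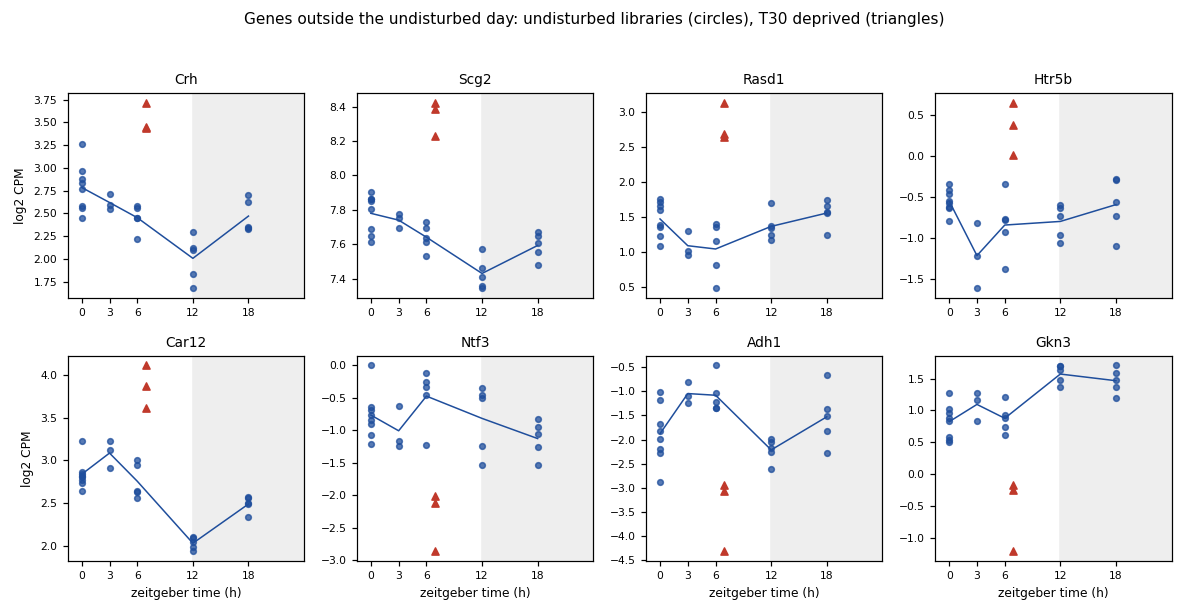
Log2 CPM of 8 genes that T30 placed outside all 5 undisturbed times, against zeitgeber time, with undisturbed libraries as blue circles, their means joined, T30 libraries as red triangles just right of ZT6 and darkness shaded. Triangles of Crh, Scg2, Rasd1 and Car12 lie above every circle, and those of Ntf3, Adh1 and Gkn3 below every circle.

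Libraries of T30 and ZT18 did not overlap for 1431 genes with T30 higher (8.36%) and 1451 with T30 lower (8.48%). Among the 1469 wake genes, 495 (33.7%) did not overlap with T30 higher. Mice deprived in the same way and killed 12 h after its end, at the clock time and in the darkness of the night group (T42, n = 3), differed from the same ZT18 libraries for 177 genes (1.03%). Scg2 was 0.39 above ZT18 at T42 (adjusted p = 0.0021) and 0.75 above it at T30, and Adcyap1 was 0.45 (adjusted p = 0.034) and 0.60 above. For Fosb (-0.37, adjusted p = 0.50), Bdnf (0.34, adjusted p = 0.17), Dbp (0.10, adjusted p = 0.80) and Cry1 (-0.24, adjusted p = 0.19) the T42 difference did not pass.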

How the data were processed

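The authors deposited 1 cortex table of log2 CPM values (17185 entries, 62 libraries). The submitters' processing notes name fastp, STAR 2.7.0e, edgeR and mm10, with no settings, and cortex library preparation was not given in the sources used here. In the deposited values, the term for label batch within groups was 0 for every gene, so batch had already been removed from them. Of the entries, 77 had no gene name (0.0618% of the signal) and were left out, and 8 symbols occurred more than once.

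All 62 libraries were fitted as 17 groups with label batch as a covariate (44 residual degrees of freedom) in limma 3.58.1 (R 4.3.3) with a mean trend, two-sided, with Benjamini-Hochberg adjustment over 17108 genes. All 3 T30 libraries and 3 of the 5 ZT18 libraries were of batch 1. The script recovered changes on simulated data of independent normal values, with the same spread of a gene in all groups. Those data lacked batch removal and unequal spread between groups, so this tests the code and not the calls. Depth per library is unknown, so no counting interval is given. Replicates were labelled as separate samples and nothing further is stated on their housing or collection. Strand use, and the sharing of reads between overlapping genes or close copies, are not stated.

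Genes named were the 12 largest called, non-overlapping differences in each direction, up to 4 members of each list by smallest p, the wake genes with the largest rise at 3 h (10 matched, 10 above, 5 below), the 8 furthest outside all 5 times in each direction, and a set list of known wake and clock genes. Some genes that met this rule are not reported here. Other genes named were chosen after their values were seen. The comparison, the lists and the members were chosen with earlier results of these data known. Gene positions are those of GENCODE vM21 (GRCm38), and promoter windows are from RefSeq (GRCm38.p6).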

Additional observations from a re-analysis of the deposited data

Results flagged for a closer look

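Of 159 named genes, 9 had 1 ZT18 library far from the other 4 on Dixon's criterion, which chance alone gives in about 1 in 20 groups. T18N2 stood apart in Ier5 (6.62 log2 CPM, others 6.23 to 6.34) and Vip (5.39, others 5.49 to 5.51). T18N3 stood apart in Kcnj9 (7.81, others 7.74 to 7.76), Slc7a5 (6.17, others 5.95 to 6.01) and Rhobtb2 (7.36, others 7.25 to 7.28). T18N7 stood apart in Ddit4 (3.60, others 3.97 to 4.12) and Pfkp (8.48, others 8.56 to 8.57). T18N4 stood apart in Sik2 (5.45, others 5.71 to 5.82) and T18N8 in Cldn22 (-1.15, others -0.62 to -0.43). The groups of 3 deprived libraries are too small for this criterion.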

How the results depend on the processing

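Of 94 named genes that passed, 45 did so under every alternative, 47 were lost without some single library and 34 under another alternative. None of the 94 reversed, and 7 genes that had not passed changed sign under some alternative. The 1165 genes that differed between T30 and ZT18 became 197 when a difference over 1.5-fold was also required. Without 1 library, that count ran from 594 to 1064, the genes above all 5 undisturbed times from 51 to 218 and those below all 5 from 48 to 144. Wake genes above the night ran from 146 to 275, matched from 748 to 1170 and below from 3 to 9. With batch 1 libraries only, 91 genes were above and 68 below all 5 times, and 179 wake genes were above the night. Among the 256 wake genes with a rise over 1.5-fold at 3 h, 99 were above, 81 matched and 1 below. The cause of these shifts was not tested beyond the smaller number of samples or genes. With the replicate number as a block, 861 genes differed between T30 and ZT18. For the 2 numbers that T30 and ZT18 share, same-numbered libraries did not deviate together (correlations of -0.0123 and 0.0171). So few shared numbers cannot exclude a pairing. The median of all genes was -0.0122 with median centring and -0.00248 without it, and centring gave 508 higher and 690 lower genes. The unknown depth limits what can be said of genes at low levels.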
